A study of Mus musculus with 23 samples.

Results

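The genes described here are those of cholesterol synthesis, uptake and export, 32 of the 24454 genes in the count table, taken by gene symbol from a list drawn up with earlier results of these data known. They fall into 4 roles. The enzymes from acetyl-CoA to the isoprenoid units number 8, those from squalene to cholesterol 11, the regulators 7, and the genes of transport, storage and efflux 6. All 32 passed the filter on low counts in both library protocols.

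Cells build cholesterol from acetyl-CoA through mevalonate and isoprenoid units, then through squalene and a series of sterol intermediates. When membrane sterol is low, SCAP carries the SREBP factors (Srebf1, Srebf2) from the endoplasmic reticulum to be cut into active form, and they switch on the enzyme genes, while INSIG proteins hold SCAP back when sterol is high. Liver X receptors (LXR, here Nr1h2) respond to oxysterols and drive the efflux pumps ABCA1 and ABCG1, which in blood stem cells are known to restrain proliferation.

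RNA was read in stem and progenitor cells sorted from C57BL/6 mouse marrow of 2 genotypes, wild type (WT) and SclCre;V617F (V617F below), in which Cre under the stem and progenitor promoter Scl induces mutant JAK2, a kinase that signals for blood cytokine receptors. Mice of both genotypes had tamoxifen on 5 days and were sampled 12 weeks later. SMART-Seq v2 libraries were made from megakaryocyte progenitors (MkP, Lin-, Kit+, Sca-1-, CD150+ and CD41+) and from LT-HSC, the long-term stem cells (Lin-, Kit+, Sca-1+, CD48- and CD150+). SMART-Seq v4 libraries were made from HSC of the LT-HSC gate split by CD41 into a negative and a positive fraction, so levels are compared only within a protocol. Every group had 3 libraries except WT CD41-positive HSC, which had 2. All V617F LT-HSC libraries came from males and all WT LT-HSC libraries from females, so genotype and sex cannot be told apart there. The MkP libraries were all female, and in the CD41 fractions V617F replicate 2 was male. The labels name no animal for a library, so p-values measure the spread between these libraries.

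The 23 libraries held 17579314 to 49191435 counts. In CD41-negative HSC, WT replicate 4 stood apart from WT replicates 1 and 3 in several members, with Msmo1 at 67.9 CPM (counts per 1e+06 counts of the scaled library) against 33.3 and 30.9, and Srebf1 at 121 CPM against 244 and 232. WT replicate 1 of that group stood apart in other measures, with 7.8% of its counts in its 10 most abundant genes against 4.44% and 2.95% in replicates 3 and 4, and granulocyte markers summing to 580 CPM against 114 and 166. In LT-HSC, WT replicate 30 correlated with the other WT libraries at a Spearman rho of 0.801 and 0.805 over genes, against 0.909 between those. WT LT-HSC and MkP libraries detected fewer genes than V617F ones, 13365 ± 466 against 15547 ± 217 (SD, n = 3) in LT-HSC and 11995 ± 491 against 14953 ± 281 in MkP. In WT, Ly6a and Itga2b followed the sorts. Ly6a, which encodes Sca-1, read 1.29 ± 1.02 CPM in WT MkP and 258 ± 237 CPM in WT LT-HSC. Itga2b, which encodes CD41, read 855 ± 86.1 CPM in WT CD41-positive and 187 ± 42.6 CPM in WT CD41-negative HSC. Gate RNA also differed between groups sorted alike. Ly6a read 178 ± 36.1 CPM in WT CD41-negative and 56.3 ± 7.71 CPM in WT CD41-positive HSC, both Sca-1+. In CD41-negative HSC, sorted CD48-, Cd48 read 8.19 ± 1.79 CPM in V617F and 1.95 ± 0.535 CPM in WT.

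Per kilobase of transcript, the regulators Srebf2, Nr1h2 and Srebf1 stood highest in WT CD41-negative HSC. The other regulators stood lower, with Scap at 35.1, Insig1 at 17.9, Mylip at 12.7 and Insig2 at 12.1 CPM per kilobase. The mean CPM per kilobase was 108 ± 28.6 for Srebf2, 57.8 ± 8.06 for Nr1h2, 46 ± 15.6 for Srebf1 and 37.5 ± 4.51 for Acat2, and neighbours from Nr1h2 down this order lay within their spread. In V617F CD41-negative HSC the order began with Srebf2 at 76.4 ± 2.59, Msmo1 at 56.7 ± 5.45 and Sqle at 48 ± 0.869 CPM per kilobase. Hsd17b7 was the lowest member in WT CD41-negative HSC, at 2.35 CPM per kilobase. Acat2, the thiolase that opens the path, led the order in all 4 groups of LT-HSC and MkP, at 87.8 to 118 CPM per kilobase. Its spread overlapped that of the next member in each of the 4. In WT LT-HSC it had 118 ± 38.5 against 117 ± 69.7 for Npc2, and in V617F MkP 87.8 ± 23.8 against 63.2 ± 9.76 for Ebp. Acat2 has a close copy beside it, Acat3, which read 64.7 to 146 CPM over the 8 group means, and how reads were shared between them is not known, so its values are uncertain.

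In CD41-negative HSC, V617F cells held more RNA for cholesterol-making enzymes than WT cells. Of the 32 members, 11 passed an adjusted p of 0.05, 10 of them higher in V617F and 1 lower, where 13.4% of all 14467 genes passed, 5.48% higher and 7.94% lower. At an unadjusted p under 0.05 there were 22, against 36.7% of all genes, and 26 had a log2 fold change above 0, against 49.2%. All 19 enzymes were above 0 and 7 passed. The median over the members was 0.29 on the log2 scale, against -0.01 over all genes tested. Cholesterol esterification (Soat1), sterol transfer (Stard4) and the feedback inhibitor Insig1 were also higher, and the sterol sensor Nr1h2 was lower. In bulk RNA of sorted cells, a change in RNA per cell and a change in the mix of cells cannot be told apart.

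**Figure D1:**
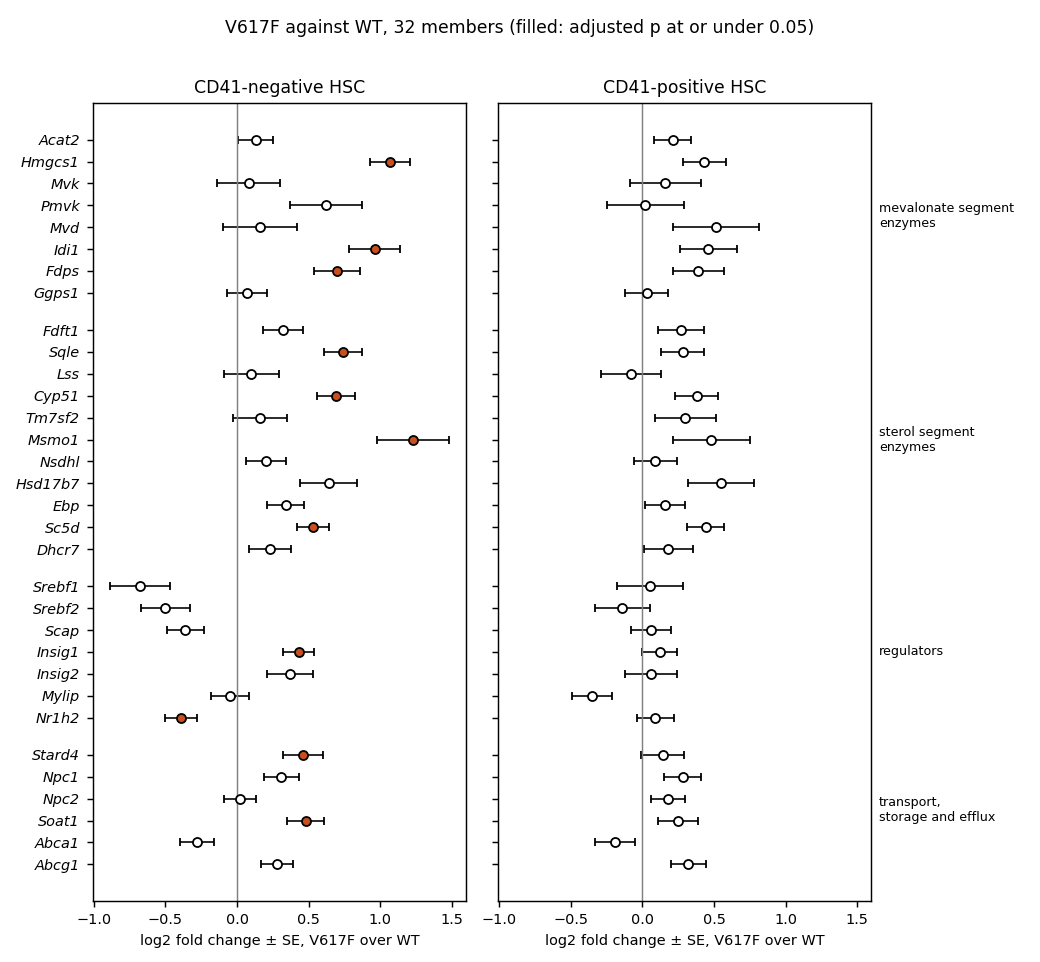
Log2 fold change of V617F over WT (horizontal axis) for each of the 32 members (vertical axis, by role) in CD41-negative HSC (left, n = 3 against 3 libraries) and CD41-positive HSC (right, n = 3 against 2). Points are edgeR estimates, bars 1 standard error, and filled points passed an adjusted p of 0.05. All 19 enzymes lie above 0 on the left, and none of the members is filled on the right.

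Hmgcs1, the synthase that makes HMG-CoA, read 98.7, 117 and 108 CPM in the 3 V617F libraries and 50.5, 46.9 and 56.9 CPM in the 3 WT libraries. The groups did not overlap. The means were 108 ± 9.21 and 51.4 ± 5.08 CPM (SD, n = 3 each), a 2.1-fold difference with a log2 fold change of 1.07 ± 0.14 (SE) and an adjusted p of 0.00144 by edgeR's quasi-likelihood test.

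Idi1, which interconverts the 5-carbon isoprenoid units, read 40.3, 43.3 and 39.4 CPM in V617F and 22, 14.7 and 26.6 CPM in WT. Its log2 fold change was 0.96 ± 0.18 (edgeR adjusted p = 0.0117), with every V617F library above every WT library. Fdps, which joins those units to farnesyl diphosphate, read 39, 33.8 and 36.6 CPM in V617F against 21.6, 17.3 and 28.5 CPM in WT, again without overlap, with a log2 fold change of 0.70 ± 0.16 (edgeR adjusted p = 0.0236). The other 5 enzymes of this segment had log2 fold changes from 0.07 (Ggps1) to 0.62 (Pmvk, adjusted p = 0.0952), and none passed. Pmvk, phosphomevalonate kinase, split within WT, at 11.7 and 12 CPM in replicates 1 and 3 and 24.5 CPM in replicate 4, the last within the V617F range of 21.6 to 26.4 CPM.

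In the sterol segment, Sqle, the squalene epoxidase that starts the sterol-specific steps, read 135, 131 and 130 CPM in V617F and 80.7, 65.2 and 91.2 CPM in WT. Its log2 fold change was 0.74 ± 0.13 (edgeR adjusted p = 0.00948). Cyp51, the lanosterol demethylase, read 103, 123 and 106 CPM against 75.8, 57.8 and 72.5 CPM, a log2 fold change of 0.69 ± 0.13 (adjusted p = 0.0125). In neither gene did the groups overlap.

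Msmo1, a methylsterol oxidase of the later steps, read 104, 113 and 93.5 CPM in V617F and 33.3, 30.9 and 67.9 CPM in WT. Its log2 fold change of 1.23 ± 0.25 (edgeR adjusted p = 0.0141) became 1.69 without WT replicate 4 and 0.6 with that replicate as the only WT library. Sc5d, the desaturase near the end of the path, read 63.6, 72.7 and 66.6 CPM against 50.4, 41.5 and 48.9 CPM, a log2 fold change of 0.53 ± 0.11 (adjusted p = 0.0189). The groups were apart in both genes, although the WT libraries of Msmo1 spanned a wider range than those of Sc5d. Hsd17b7, a sterol ketoreductase, lay just outside the threshold at a log2 fold change of 0.64 ± 0.20 (adjusted p = 0.0528). The other 6 sterol enzymes ranged from 0.10 (Lss) to 0.34 (Ebp, adjusted p = 0.081) on the log2 scale.

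**Figure D2:**
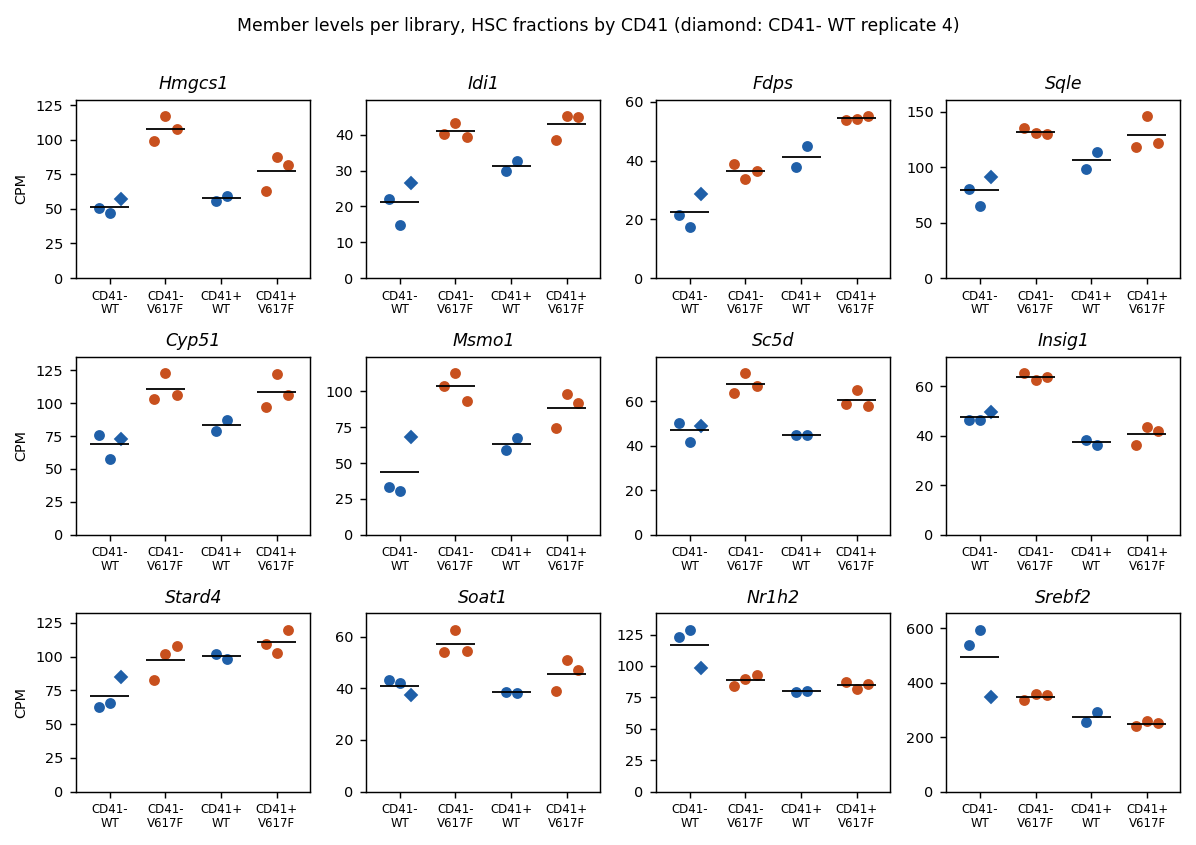
CPM in each library (vertical axis, from 0) of the 11 members that differed by genotype in CD41-negative HSC and of Srebf2, in the 4 groups of CD41 fractions (WT blue, V617F orange, black line the mean, 2 libraries in WT CD41-positive HSC and 3 elsewhere). The diamond is CD41-negative WT replicate 4, which lies between WT replicates 1 and 3 and the V617F libraries for Msmo1 at 67.9 CPM and among the V617F libraries for Srebf2 at 346 CPM.

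The promoters shown are those of the 5 enzyme genes called higher in V617F CD41-negative HSC for which a RefSeq window was on hand. None was on hand for Fdps and Sqle, which were also called. SREBPs are known to act at promoters of such genes through a sterol element with a neighbouring CCAAT box. Whether they acted here was not tested. The bases end just before the RefSeq start site (GRCm38.p6, the mm10 assembly), run 5′ to 3′ on the gene's strand, and have in capitals each match to TCACNCCAC, a spelling of the sterol element, and to CCAAT on either strand (ATTGG is its reverse). Hmgcs1 is at chr13:119690101-119690350 (+), Idi1 at chr13:8885486-8885605 (+), Msmo1 at chr8:64733579-64733698 (-), Cyp51 at chr5:4104698-4104817 (-) and Sc5d at chr9:42264301-42264420 (-).
Hmgcs1: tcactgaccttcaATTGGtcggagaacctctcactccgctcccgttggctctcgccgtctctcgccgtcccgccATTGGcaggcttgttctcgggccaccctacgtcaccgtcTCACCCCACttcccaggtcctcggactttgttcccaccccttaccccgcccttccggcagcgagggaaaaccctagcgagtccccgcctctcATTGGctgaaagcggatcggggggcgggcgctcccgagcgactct
Idi1: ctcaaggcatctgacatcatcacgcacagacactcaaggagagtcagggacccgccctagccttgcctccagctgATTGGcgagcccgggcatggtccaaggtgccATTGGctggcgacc
Msmo1: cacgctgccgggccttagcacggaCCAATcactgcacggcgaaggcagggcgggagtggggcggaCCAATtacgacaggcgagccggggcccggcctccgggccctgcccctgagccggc
Cyp51: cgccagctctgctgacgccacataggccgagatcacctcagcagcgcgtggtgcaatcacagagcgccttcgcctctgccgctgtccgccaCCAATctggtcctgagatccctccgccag
Sc5d: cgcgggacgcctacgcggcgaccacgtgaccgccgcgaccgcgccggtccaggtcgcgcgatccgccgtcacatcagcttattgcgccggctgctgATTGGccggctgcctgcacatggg

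RefSeq windows from 250 bases before to 50 after the start were on hand for 26 of the 32 members, 34 windows in all. TCACNCCAC matched 1 of the 34, that of Hmgcs1 at position -137, where the printed stretch reads TCACCCCAC and shares no base with a CCAAT match. The same letters were found in 1.24% of all 32851 mouse windows. A looser spelling, TCACNCNAC, matched 5.88% of the member windows, those of Hmgcs1 and Nsdhl, against 2.67% of windows of tested genes. No other spelling was searched, so a promoter without a match may still hold a sterol element. CCAAT on either strand was found in 67.6% of the member windows, against 37.4% of all windows and 37.7% of windows of genes tested in the CD41 fractions. It was present in 22 of the 26 genes, among them Srebf1 and Srebf2, whose RNA did not rise. The GC box GGGCGG was in 79.4% of member windows and 59.9% of windows of tested genes. The E-box CACGTG was in 20.6% of member windows, from 6 genes, and 9.76% of windows of tested genes. These counts describe letters in a window and not bound sites, and some windows of the same gene overlap.

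Among the regulators, 2 passed and went in opposite directions. Insig1, which retains SCAP in the endoplasmic reticulum and is itself an SREBP target, read 65.5, 62.5 and 63.7 CPM in V617F and 46.6, 46.5 and 49.5 CPM in WT, a log2 fold change of 0.43 ± 0.11 (edgeR adjusted p = 0.0299). Nr1h2 read 84.3, 89.9 and 93.1 CPM in V617F and 123, 129 and 98.3 CPM in WT, a log2 fold change of -0.39 ± 0.11 (adjusted p = 0.0427). Neither gene's groups overlapped, and for Nr1h2 WT replicate 4 was the WT library nearest to V617F.

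The SREBP genes themselves did not pass and did not point the way of the enzymes. Srebf2, the form that serves cholesterol genes, read 335, 357 and 354 CPM in V617F and 539, 595 and 346 CPM in WT, with a log2 fold change of -0.50 ± 0.17 (edgeR adjusted p = 0.0631). Srebf1, the form best known for fatty acid genes, read 121, 116 and 137 CPM against 244, 232 and 121 CPM, a log2 fold change of -0.68 ± 0.21 (adjusted p = 0.0504). For both genes WT replicate 4 lay within or at the edge of the V617F range while the other WT libraries lay above it. Without that replicate both passed, Srebf1 at -0.94 (adjusted p = 0.000204) and Srebf2 at -0.70 (adjusted p = 0.000622). Taken alone, that replicate read 121 and 346 CPM, beside V617F means of 124 and 349 CPM, so the fall rested on WT replicates 1 and 3. Both also passed by DESeq2, at adjusted p of 0.0178 and 0.0278. Scap had a log2 fold change of -0.36 ± 0.13 (adjusted p = 0.0702) and Insig2 one of 0.37 ± 0.16 (adjusted p = 0.115), while Mylip, the ligase that marks lipoprotein receptors for breakdown, stood at -0.05 ± 0.13.

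Of the 6 transport, storage and efflux genes, Soat1, which stores cholesterol as ester, read 54.1, 62.7 and 54.3 CPM in V617F against 43.3, 42.1 and 37.3 CPM in WT, with a log2 fold change of 0.48 ± 0.13 (edgeR adjusted p = 0.035). Stard4, a carrier of sterol between membranes, read 82.9, 102 and 108 CPM against 62.3, 65.4 and 84.5 CPM, a log2 fold change of 0.46 ± 0.14 (adjusted p = 0.0461). Soat1 groups did not overlap, and those of Stard4 overlapped by WT replicate 4.

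The efflux pumps did not move together. Abca1 read 64.9, 65.7 and 69 CPM in V617F and 70.4, 91.3 and 80.7 CPM in WT, a log2 fold change of -0.28 ± 0.12 (edgeR adjusted p = 0.118). Abcg1 read 98.9, 96.5 and 101 CPM against 75.4, 83.9 and 85.1 CPM, a log2 fold change of 0.28 ± 0.11 (adjusted p = 0.0862). Neither passed, although the groups of each gene were apart, in opposite directions. Over the members, 14 had every V617F library above every WT library and 2 the reverse, against 16% and 14.3% of all genes. The late endosomal transporter Npc1 read 49.6, 43.3 and 45.8 CPM against 36.5, 39.4 and 36 CPM (0.31 ± 0.12, adjusted p = 0.0797), and its partner Npc2 had a log2 fold change of 0.02 ± 0.11.

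Other marker groups were read in the same comparison, where 5.48% of all genes were called higher and 7.94% lower. Mitosis genes were higher in V617F CD41-negative HSC in 4 of 12 cases, with a median log2 fold change of 0.46. Erythroid markers were lower in 6 of 9, with none at 0 in every library of a group. Their summed level was 42.2 to 120 CPM in V617F and 133 to 172 CPM in WT. Hba-a1 and Hba-a2 had the same mean in each CD41-fraction group, so they are not separate readings. Hbb-bs and Hbb-bt, in the same list, read higher in V617F, within their spread. They stood at 27 ± 14.1 against 17 ± 8.38 CPM and at 44.4 ± 25.3 against 28.2 ± 6.17 CPM. Macrophage markers were lower in 6 of 8 and higher in 1, summing to 37.8 to 43.7 CPM in V617F and 43.2 to 49.7 CPM in WT, with Adgre1 at 0 in all V617F libraries. Of 8 megakaryocyte markers tested, 3 were lower, the list summing to 890 to 1040 CPM against 1420 to 1650 CPM, with Gp6 at 0 in both groups. Granulocyte markers summed to 166 to 200 CPM in V617F and 114 to 580 CPM in WT, the highest being WT replicate 1. Of 6 endothelial and stromal markers tested 1 was lower, the list summing to 19.9 to 48.3 CPM against 42.9 to 60 CPM. The part of these cells in the member differences was not tested.

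The count of 11 rested on all libraries. It was 6, 4 and 19 without WT replicates 1, 3 and 4, and 6, 4 and 5 without V617F replicates 1, 2 and 3. It was 3 when only the 2 groups were fitted and 2 without the male libraries. A further fit kept WT replicate 4 as the only WT library, assumed to vary like the other groups. The members called higher then had log2 fold changes from 0.2 (Stard4) to 0.91 (Hmgcs1), and Nr1h2 stood at -0.15. Without WT replicate 4 the members called were 15 higher and 4 lower, and 41.8% of all genes passed.

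Genes of related steps were read beside the 13.4% of all genes called in this comparison. Of 13 genes of fatty acid synthesis and desaturation none passed, at a median of 0.01 and 2 at an unadjusted p under 0.05. Of 15 genes of isoprenoid use and protein prenylation 2 were higher, Chm at 0.56 and Pggt1b at 0.45 on the log2 scale, both parts of prenylation machinery, a share near that of all genes. Of 17 genes of other sterol transport and ester turnover 2 were higher and 1 lower, with the lipoprotein receptor Vldlr at 174 ± 46.1 CPM in V617F and 57.8 ± 12.7 CPM in WT (log2 fold change 1.59 ± 0.23, edgeR adjusted p = 0.00339) and Tspo at -1.28.

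Among 9 LXR partners and other LXR targets, 4 were lower, where 7.94% of all genes were, and the median was -0.57. Of those, Abca7 was lower at -0.73 ± 0.18 (edgeR adjusted p = 0.0282) and the partner receptor Rxrb at -0.57 ± 0.18 (adjusted p = 0.0489). Abcg4, a further sterol pump, was at 0 in all 3 V617F libraries and at 2.93 ± 2.34 CPM in WT. The medians of all genes tested were -0.01, so the fatty acid list lay at the level of all genes and the LXR list below it. The LXR list summed to 1140, 1120 and 921 CPM in WT replicates 1, 3 and 4 and to 892, 904 and 850 CPM in V617F. WT replicate 4 was thus the WT library nearest to V617F here too.

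In CD41-positive HSC the same comparison gave no call. By edgeR's quasi-likelihood test 0 of the 32 members passed, where 1.16% of all genes did (0.221% higher), with 8 at an unadjusted p under 0.05 (10.6% of all genes), 1 call by DESeq2 and 0 by limma-voom. The WT group had only 2 libraries. The log2 fold change was positive for 28 members, against 55% of all genes, with a median of 0.18 against 0.03.

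Hmgcs1 read 63.1, 87.5 and 81.6 CPM in V617F and 55.6 and 59.5 CPM in WT, a log2 fold change of 0.43 ± 0.15 (edgeR adjusted p = 0.277). Sc5d had the smallest p, with 58.9, 65.1 and 58 CPM against 44.7 and 44.9 CPM, a log2 fold change of 0.44 ± 0.13 (adjusted p = 0.157). It was the member called by DESeq2, at an adjusted p of 0.0417, and its adjusted p over the alternatives ran from 0.0417 to 0.791. Cyp51 had 0.38 ± 0.15 (adjusted p = 0.35) and Abcg1 0.32 ± 0.12 (adjusted p = 0.324). In all 4 genes every V617F library was above both WT libraries, as in 18 members in total, against 23.9% of all genes, and Mylip alone was apart in the other direction, against 17.8%.

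Mylip read 21.1, 19.9 and 18.9 CPM in V617F against 28.3 and 22.6 CPM in WT (log2 fold change -0.35 ± 0.14, edgeR adjusted p = 0.39). The regulators that read lower in V617F CD41-negative HSC were near WT here, with Srebf1 at 0.05 ± 0.23, Srebf2 at -0.14 ± 0.19, Scap at 0.06 ± 0.14 and Nr1h2 at 0.09 ± 0.13 on the log2 scale. Vldlr, from the related list, had a log2 fold change of 1.21 ± 0.27 (adjusted p = 0.0529), and none of the 5 related lists held a call.

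Whether the genotype effect differed between the fractions was tested by an interaction term. No member passed by edgeR, DESeq2 or limma-voom, and 0% of all genes passed by edgeR. In edgeR 5 members had an unadjusted p under 0.05, against 8.81% of all genes. Hmgcs1 had the smallest p, its log2 effect being 0.64 ± 0.20 smaller in the CD41-positive fraction (-0.64, edgeR adjusted p = 0.566), then Nr1h2 (0.48 ± 0.17), Sqle (-0.46 ± 0.20), Srebf1 (0.73 ± 0.32) and Scap (0.42 ± 0.19), all at an adjusted p of 0.566. The adjusted p of Hmgcs1 ran from 0.0324 to 0.999 over the alternatives. Without CD41-negative WT replicate 4, 7 members passed, Msmo1 (-1.21), Pmvk (-1.04), Hmgcs1 (-0.72), Srebf1 (0.99), Srebf2 (0.56), Nr1h2 (0.59) and Scap (0.54), where 12.3% of all genes did.

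Between the CD41 fractions, Abca1, Abcg1 and Npc1 were lower in CD41-positive HSC of both genotypes, as were the regulators Mylip, Insig1 and Srebf2, while the enzymes Ebp, Fdps and Acat2 were higher. Other enzymes went either way. In WT, 16 of the 32 members passed, 7 higher and 9 lower in the CD41-positive fraction, where 34% of all genes passed, 15.7% higher and 18.2% lower. Their log2 fold change was above 0 in 14, against 47.3% of all genes, and 8 members were apart upward and 13 downward, against 27.4% and 29.3%. In V617F, 11 passed, 3 higher and 8 lower, where 34.3% of all genes passed, 16.4% higher and 17.9% lower, and 10 were above 0, against 48.2%. The share of members called in V617F was thus near that of all genes. These comparisons use the same CD41-negative libraries as the genotype comparison above, so a library that is high there is high in both.

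**Figure D3:**
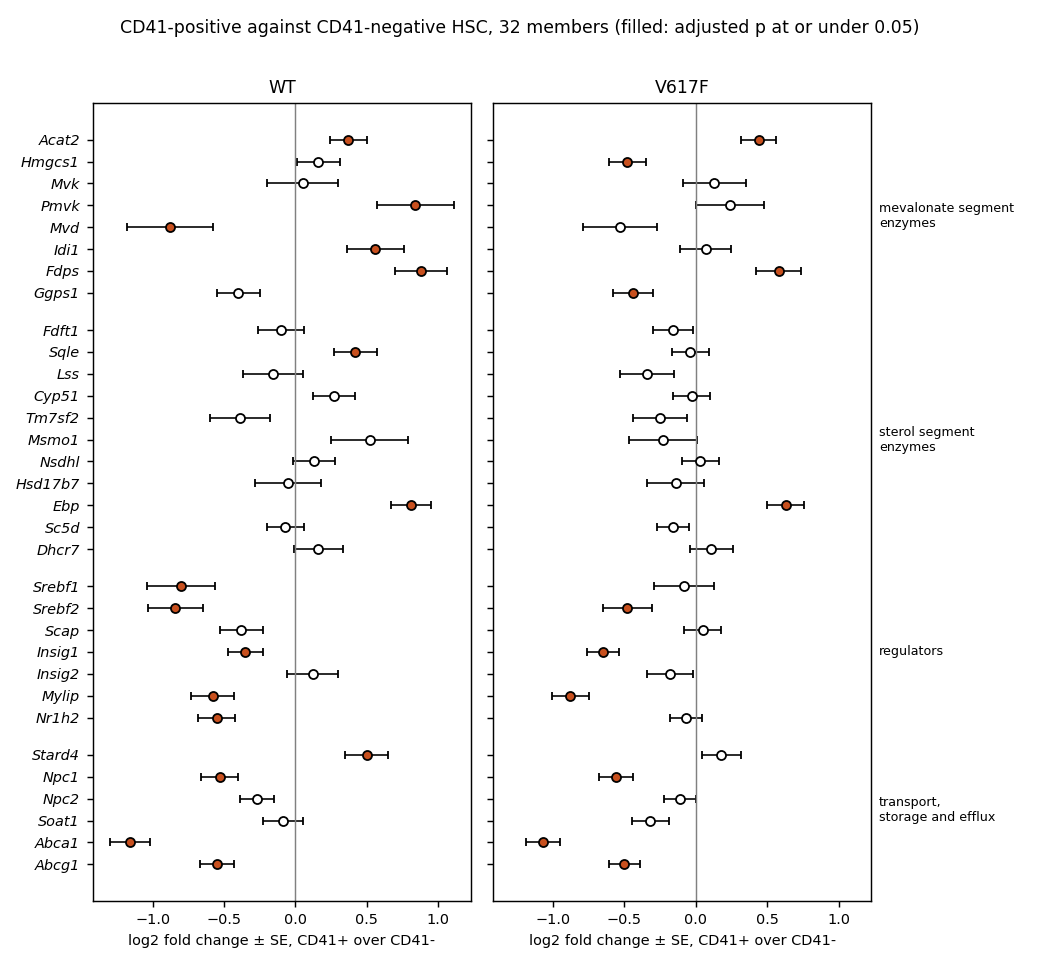
Log2 fold change of CD41-positive over CD41-negative HSC (horizontal axis) for each of the 32 members (vertical axis, by role) in WT (left, n = 2 against 3 libraries) and V617F (right, n = 3 against 3). Points are edgeR estimates, bars 1 standard error, and filled points passed an adjusted p of 0.05. Abca1 is the lowest point on both sides, at -1.16 in WT and -1.07 in V617F.

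Abca1, which hands cholesterol to lipid-poor apolipoproteins, read 39.2 and 33.1 CPM in the WT CD41-positive libraries and 70.4, 91.3 and 80.7 CPM in the CD41-negative ones. In V617F it read 30, 33.7 and 31.1 CPM against 64.9, 65.7 and 69 CPM. The fractions did not overlap in either genotype, with log2 fold changes of -1.16 ± 0.14 in WT (edgeR adjusted p = 0.000183) and -1.07 ± 0.12 in V617F (adjusted p = 5.67e-05). It kept its call under all 14 alternatives in WT and all 15 in V617F.

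Abcg1, which passes cholesterol to mature lipoproteins, read 52.2 and 59.3 CPM in WT CD41-positive HSC against 75.4, 83.9 and 85.1 CPM, and 77.6, 66.3 and 65.1 CPM in V617F against 98.9, 96.5 and 101 CPM. Its log2 fold change was -0.55 ± 0.12 in WT (edgeR adjusted p = 0.0061) and -0.50 ± 0.11 in V617F (adjusted p = 0.00322), again without overlap. Npc1 was lower in both genotypes too, at -0.53 ± 0.13 in WT (adjusted p = 0.0105) and -0.56 ± 0.12 in V617F (adjusted p = 0.00281). Stard4 was higher in WT, at 0.50 ± 0.15 (adjusted p = 0.0246) against 0.18 ± 0.14 in V617F (adjusted p = 0.336), and the interaction term for Stard4 had an adjusted p of 0.584.

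Among the regulators, Mylip read 28.3 and 22.6 CPM in WT CD41-positive HSC against 40.3, 34.7 and 38.7 CPM, and 21.1, 19.9 and 18.9 CPM in V617F against 38.2, 36.3 and 35.5 CPM. The log2 fold changes were -0.58 ± 0.15 (edgeR adjusted p = 0.0109) and -0.88 ± 0.13 (adjusted p = 0.000298), and the fractions did not overlap. Insig1 was lower at -0.35 ± 0.12 in WT (adjusted p = 0.0453) and -0.65 ± 0.11 in V617F (adjusted p = 7e-04). Srebf2 was lower at -0.84 ± 0.19 in WT (adjusted p = 0.00712) and -0.48 ± 0.17 in V617F (adjusted p = 0.0427). Nr1h2 (-0.55 ± 0.13, adjusted p = 0.00753) and Srebf1 (-0.80 ± 0.24, adjusted p = 0.0229) were lower in WT, the last with overlapping fractions, and stood at -0.07 and -0.08 in V617F. In WT with CD41-negative replicate 4 as the only library of its group, Srebf1 was at -0.09, Srebf2 at -0.34 and Nr1h2 at -0.31, and none of the 3 passed.

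Of the enzymes, Ebp, the sterol isomerase, read 56.1 and 60.3 CPM in WT CD41-positive HSC against 29.8, 29.7 and 39.9 CPM, and 64.2, 63.2 and 67 CPM in V617F against 41.1, 41.6 and 43.3 CPM. Its log2 fold change was 0.81 ± 0.14 in WT (edgeR adjusted p = 0.00162) and 0.63 ± 0.13 in V617F (adjusted p = 0.0025), with no overlap. Fdps was higher at 0.88 ± 0.18 (adjusted p = 0.00384) and 0.58 ± 0.16 (adjusted p = 0.0151), and Acat2 at 0.37 ± 0.13 (adjusted p = 0.0443) and 0.44 ± 0.12 (adjusted p = 0.0108).

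Hmgcs1 was lower in the CD41-positive fraction of V617F, at 63.1, 87.5 and 81.6 CPM against 98.7, 117 and 108 CPM (log2 fold change -0.48 ± 0.13, edgeR adjusted p = 0.0149), and had 0.16 ± 0.15 in WT (adjusted p = 0.419). Ggps1, which makes geranylgeranyl diphosphate for protein prenylation, was lower in V617F at -0.44 ± 0.14 (adjusted p = 0.0251) and had -0.40 ± 0.15 in WT (adjusted p = 0.0582). In WT, Pmvk (0.84), Idi1 (0.56) and Sqle (0.42) were also higher and Mvd (-0.88) lower. Each of these 4 calls was lost without either CD41-positive library and without CD41-negative replicate 1 or 3. With CD41-negative replicate 4 as the only library of its group, Pmvk stood at 0.23, Idi1 at 0.22 and Sqle at 0.21. Over the 19 enzymes the median was 0.16 in WT and -0.04 in V617F, against -0.04 and -0.02 over all genes.

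All 12 mitosis genes were higher in the CD41-positive fraction of both genotypes, with medians of 1.82 in WT and 1.77 in V617F on the log2 scale. Marker counts here stand beside 15.7% of all genes called higher and 18.2% lower in WT, and 16.4% and 17.9% in V617F. Of 8 megakaryocyte markers tested, 7 were higher in both genotypes, with Gp6 at 0 in every library of these groups. The list summed to 2670 to 2850 CPM in WT CD41-positive and 1420 to 1650 CPM in WT CD41-negative HSC. In V617F the sums were 1640 to 2330 against 890 to 1040 CPM. The list holds Itga2b, which encodes the CD41 of the sort, so its difference follows from the gate. Itga2b read 855 ± 86.1 against 187 ± 42.6 CPM in WT and 697 ± 74.5 against 115 ± 20 CPM in V617F. Granulocyte markers were lower in 5 of 10 in WT (82.5 to 91.1 against 114 to 580 CPM) and in 1 of 10 in V617F (51.8 to 136 against 166 to 200 CPM). Endothelial and stromal markers were higher in 4 of 6 tested in WT (73.8 to 98.4 against 42.9 to 60 CPM for the list of 8), and 1 was higher and 1 lower in V617F (29.8 to 50.2 against 19.9 to 48.3 CPM). Macrophage markers were lower in 1 of 8 in WT (26.8 to 29.3 against 43.2 to 49.7 CPM) and in 4 of 8 in V617F (20.1 to 21.2 against 37.8 to 43.7 CPM). Erythroid markers were lower in 3 of 9 in WT (49.6 to 134 against 133 to 172 CPM), and 2 were lower and 1 higher in V617F (42.1 to 59 against 42.2 to 120 CPM). The part of other cells in these member differences was not tested.

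Of the related lists, 8 of 17 genes of other sterol transport and ester turnover were lower in CD41-positive HSC of each genotype (medians -0.30 and -0.36), with the ester hydrolase Nceh1 at -1.11 in WT and -1.40 in V617F and the endocytic receptor Lrp1 at -2.93 and -2.67. These counts stand beside 18.2% of all genes called lower in WT and 17.9% in V617F. Fatty acid genes were lower in 3 of 13 in each genotype, near those shares, and LXR partners and targets in 5 of 9 in WT and 1 of 9 in V617F.

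The WT count of 16 was 9, 8 and 20 without CD41-negative replicates 1, 3 and 4, 5 and 3 without CD41-positive replicates 3 and 4, 3 when only the 2 groups were fitted and 5 without CD41-negative replicates 1 and 3 together. The V617F count of 11 was 7 without CD41-negative replicate 2, and with the replicate number within a genotype as a block it was 13, Mvd (-0.57, adjusted p = 0.0265) and Soat1 (-0.33, adjusted p = 0.0441) being added.

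In LT-HSC no member passed the threshold between genotypes. By edgeR 0 of 32 passed, where 0.063% of all genes did (0.028% higher), with 3 at an unadjusted p under 0.05 (12.3% of all genes) and 0 calls by DESeq2 and by limma-voom. These libraries differed more among themselves than those of the CD41 fractions. The members varied by a median of 55.2% (coefficient of variation) over the WT LT-HSC libraries and 27.8% over the V617F ones, against 14% and 8.17% in CD41-negative HSC. A log2 fold change as large as that of Hmgcs1 there, 1.07, would come to little over 1 of its standard errors here (0.80).

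**Figure D4:**
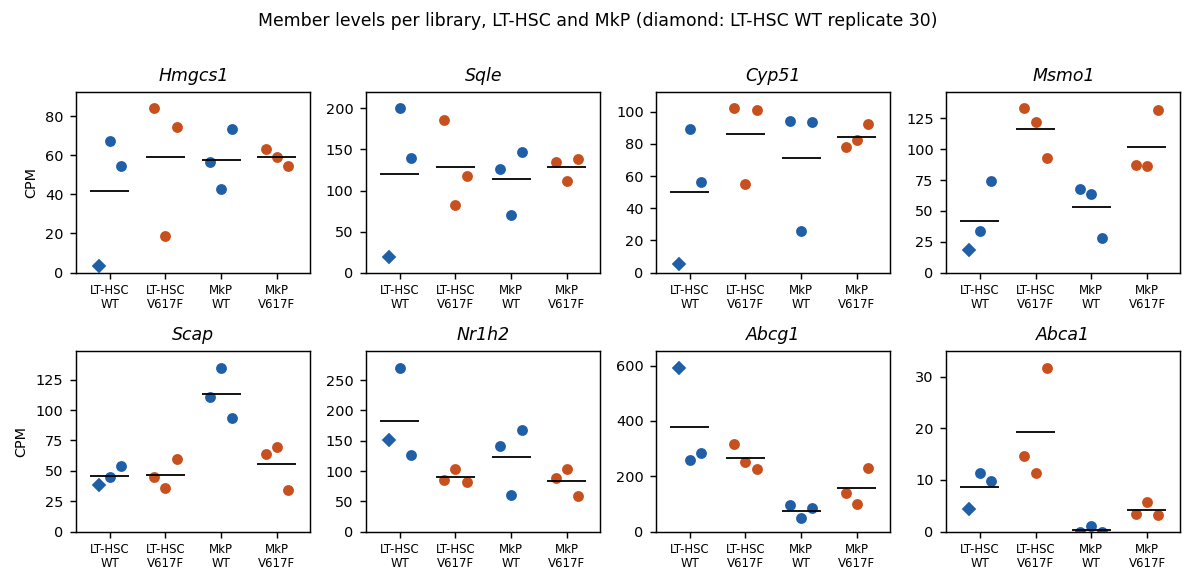
CPM in each library (vertical axis, from 0) of 8 members in LT-HSC and MkP of both genotypes (WT blue, V617F orange, black line the mean, n = 3 libraries a group). The diamond is LT-HSC WT replicate 30, at 3.21 CPM for Hmgcs1 and 593 CPM for Abcg1, and Abca1 in WT MkP lies at 0, 1.15 and 0 CPM.

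WT replicate 30 held little RNA for several enzymes. Hmgcs1 read 3.21, 67.6 and 54.4 CPM in the WT libraries (replicates 30, 31 and 32) and 84, 18.5 and 74.3 CPM in V617F, and Idi1 0.366, 25.1 and 29 CPM against 28.6, 12.1 and 29.8 CPM. Cyp51 read 5.41, 89.5 and 56 CPM in WT and 102, 55.3 and 101 CPM in V617F. In all 3 genes the groups overlapped. The same library was the highest of its group for Fdps (121 CPM against 23.2 and 26.2), Ebp (300 CPM against 38.8 and 99.9) and Abcg1 (593 CPM against 260 and 283), so it was not low throughout the path.

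Msmo1 came closest to the threshold, at 133, 122 and 93 CPM in V617F and 18.6, 34 and 73.9 CPM in WT. The groups did not overlap, and the log2 fold change was 1.46 ± 0.50 (edgeR adjusted p = 0.244), or 1.12 without replicate 30 (adjusted p = 0.263). Stard4 had 1.03 ± 0.42 (adjusted p = 0.33), Nr1h2 -1.02 ± 0.42 (adjusted p = 0.34) and Srebf1 -1.10 ± 0.55 (adjusted p = 0.458).

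Nr1h2 read 85.7, 103 and 82.5 CPM in V617F and 152, 271 and 127 CPM in WT, without overlap. Npc1 read 47.5, 37.8 and 41.8 CPM against 14, 20.3 and 16.4 CPM, also without overlap, with a log2 fold change of 1.32 ± 0.73 (adjusted p = 0.511). In all, 21 members had a log2 fold change above 0, against 47.4% of all genes, 3 had every V617F library above every WT one and 1 the reverse, against 13.6% and 5.63% of all genes. The 11 sterol enzymes had 10 positive log2 fold changes and a median of 0.57, the 19 enzymes together 15 and 0.49, and all genes a median of -0.05. The exception among the sterol enzymes was Ebp, at -0.85 ± 0.55 and at 0.23 without WT replicate 30. Without that replicate the median was 0.36 for the sterol enzymes and 0.27 for all 19, with 10 and 13 above 0, and Hmgcs1 moved from 0.50 to -0.03 and Cyp51 from 0.78 to 0.27. The median of the 19 was 0.28 without WT replicate 31 and 0.21 without V617F replicate 6.

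In MkP, 0 of 32 members passed by edgeR, where 1.75% of all genes did (1.62% higher), with 3 at an unadjusted p under 0.05 (15.3% of all genes) and 1 call each by DESeq2 (Scap) and limma-voom (Abca1). Scap, the SREBP escort, read 63.7, 69.3 and 34.4 CPM in V617F and 111, 135 and 93.4 CPM in WT, a log2 fold change of -1.02 ± 0.37 (adjusted p = 0.176, from 0.0334 to 0.506 over the alternatives). Abcg1 read 141, 98.7 and 228 CPM against 95.9, 47.8 and 84.1 CPM, a log2 fold change of 1.04 ± 0.42 (adjusted p = 0.244). Both pairs of groups were apart, narrowly so for Abcg1.

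Abca1 was at 0 in 2 of 3 WT MkP libraries and at 1.15 CPM in the other, and read 3.44, 5.8 and 3.28 CPM in V617F. Its log2 fold change of 3.43 ± 1.54 (edgeR adjusted p = 0.31) depends on these few counts, and without WT replicate 31, where the WT group is at 0, it passed at an adjusted p of 0.0101 (0.0101 to 0.509 over the alternatives). WT MkP had 7 member values at 0 in all and V617F MkP none. The WT MkP libraries also detected fewer genes, 11995 ± 491 against 14953 ± 281. Msmo1 had 0.94 ± 0.49 (adjusted p = 0.416). The 19 enzymes held no call, with a median of 0.16 against 0.08 over all genes. Of the members 21 were above 0, against 53.9% of all genes, and 6 were apart upward and 5 downward, against 21% and 9.99% of all genes.

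**Figure D5:**
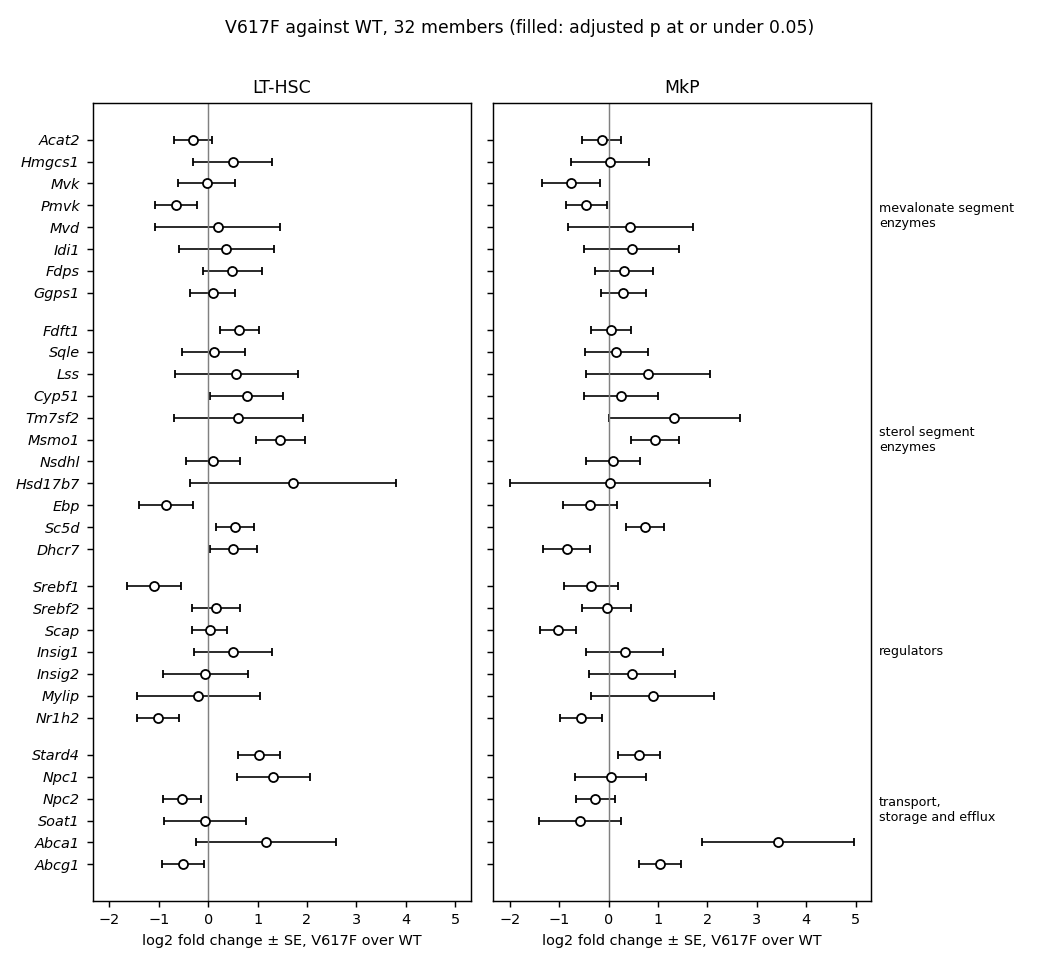
Log2 fold change of V617F over WT (horizontal axis) for each of the 32 members (vertical axis, by role) in LT-HSC (left) and MkP (right), n = 3 against 3 libraries each. Points are edgeR estimates and bars 1 standard error, and no point is filled because none passed an adjusted p of 0.05. Msmo1 reads 1.46 in LT-HSC and 0.94 in MkP, and Abca1 reads 3.43 in MkP with a standard error of 1.54.

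Markers of granulocytes summed lower in the V617F libraries of both populations, and in LT-HSC genotype and sex cannot be told apart. Their summed level was 3750 to 6860 CPM in WT LT-HSC against 475 to 1180 CPM in V617F, and 8330 to 12300 CPM in WT MkP against 1130 to 2570 CPM in V617F. By edgeR 0 of the 10 passed as lower in LT-HSC, where 0.035% of all genes did, and 9 had an unadjusted p under 0.05 (12.3% of all genes). In MkP 1 of 10 passed as lower, where 0.126% of all genes did. None was at 0 in every library of a group. Erythroid markers summed to 133 to 517 CPM in WT against 67.8 to 163 CPM in V617F LT-HSC and to 294 to 378 against 40.6 to 95.6 CPM in MkP. Macrophage markers summed to 65.8 to 122 CPM in WT against 41.4 to 59.5 CPM in V617F LT-HSC. In MkP their sums were 63.7 to 93.2 against 14.7 to 23.4 CPM. Endothelial and stromal markers summed to 8.75 to 22.5 CPM in WT against 18.1 to 48 CPM in V617F LT-HSC. In MkP these were 9.46 to 47 against 22 to 25.1 CPM. The part of such cells in the member values was not tested.

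Between MkP and LT-HSC, 2 members passed in WT, 1 higher and 1 lower, where 8.9% of all genes did, 2.32% higher and 6.58% lower. At an unadjusted p under 0.05 there were 7 (27% of all genes), 11 had a log2 fold change above 0 (41.9%), and 2 were apart upward (8.39%) and 6 downward (12.1%). Abcg1 was lower in MkP, at 95.9, 47.8 and 84.1 CPM against 593, 260 and 283 CPM in LT-HSC, a log2 fold change of -2.32 ± 0.44 (edgeR adjusted p = 0.0079). Scap was higher, at 111, 135 and 93.4 CPM against 38.1, 45.2 and 54.2 CPM, a log2 fold change of 1.30 ± 0.37 (adjusted p = 0.0461). Neither pair of groups overlapped. Both calls were lost when only the 2 groups were fitted. Scap lost its call with any of the 6 libraries left out, at adjusted p from 0.0503 to 0.111 (0.00397 to 0.324 over all alternatives), and Abcg1 kept its call in each of these. Abca1 had -4.47 ± 1.62 (adjusted p = 0.0986) and Npc2 -1.01 ± 0.39 (adjusted p = 0.123).

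In V617F the MkP libraries were all female and the LT-HSC libraries all male, so population and sex cannot be told apart in this comparison or in the interaction that uses it. By edgeR 0 members passed, where 1.09% of all genes did, with 2 at an unadjusted p under 0.05 (10.4% of all genes), 1 call by DESeq2 and 0 by limma-voom. Abcg1 had a log2 fold change of -0.77 ± 0.42 (adjusted p = 0.614) and Scap 0.26 ± 0.36 (adjusted p = 0.97), while Srebf2 stood at -1.16 ± 0.50 (adjusted p = 0.428) and Npc2 at -0.75 ± 0.39 (adjusted p = 0.589). Fdft1, the squalene synthase, came closest, at 30.1, 26.3 and 39.2 CPM in MkP against 97.4, 117 and 49.8 CPM in LT-HSC, without overlap (-1.47 ± 0.40, adjusted p = 0.154, from 0.00792 to 0.556 over the alternatives). When only the 2 V617F groups were fitted, 6 members were lower, Abca1, Fdft1, Mvd, Tm7sf2, Srebf2 and Npc1, where 21.9% of all genes passed.

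Whether the genotype effect differed between MkP and LT-HSC was again tested by an interaction term. No member passed by edgeR, DESeq2 or limma-voom, where 0.455% of all genes did by edgeR, and 1 had an unadjusted p under 0.05 (8.75% of all genes). That was Abcg1, whose log2 effect was 1.55 ± 0.59 larger in MkP (adjusted p = 0.444). Next came the reductase Dhcr7 at -1.36 ± 0.67 and Scap at -1.05 ± 0.51 (both adjusted p = 0.612) and Npc1 at -1.29 ± 1.02 (adjusted p = 0.866). Without WT MkP replicate 31, Abca1 passed, that library being the only WT MkP library with an Abca1 count. All 12 mitosis genes had positive log2 fold changes in MkP over LT-HSC. Of these, 9 were called in WT and 2 in V617F, beside 2.32% and 0.378% of all genes called higher. The 19 enzymes had a median of -0.06 in WT and -0.19 in V617F, against -0.20 and -0.06 over all genes.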

How the data were processed

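The authors deposited whole counts by gene for 23 libraries, beside gene lengths, per the file headers. Per the submitters' processing notes, the authors used STAR 2.5.2a, R 3.4.2, limma and mm10. How reads were counted, and against which annotation, is not given in the sources used here. Rows without a symbol (11) stayed in, since each has a gene ID. The members and lists were chosen with earlier results of these data known.

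Each protocol was fitted apart in R 4.3.3 with edgeR 4.0.16 (TMM scaling, filterByExpr on groups, 1 mean per group, quasi-likelihood F test), leaving 14467 genes with v4 and 14281 with v2. P-values were adjusted by Benjamini-Hochberg over all genes tested in a contrast, with a threshold of 0.05, over 10 contrasts. CPM are counts per 1e+06 of the TMM-scaled library total, and CPM per kilobase divide by the deposited length, which is in bases. The standard error was taken from the fold change and its F statistic. Named members were those that passed and the 4 with the smallest p per contrast, with 14 members that could be read in every contrast. Any other named member was chosen after its values were seen, and some genes of the related lists are not reported here. Scripts were tested on simulated data. Alternatives were DESeq2 1.42.0, limma-voom (3.58.1), RLE size factors, no filter, 5 CPM in 3 libraries, and only the groups compared. Others left out each library, the male CD41-fraction libraries, or CD41-negative WT replicates 1 and 3, or added replicate blocks. V617F CD41-fraction libraries of equal number had residuals correlated at r = 0.301, 0.419 and 0.298 over genes, so they are treated as pairs by that check, and the labels do not state the pairing. Promoters come from RefSeq (GRCm38.p6).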

Additional observations from a re-analysis of the deposited data

How the results depend on the processing

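Over 40 member results that passed, 580 refits reversed no sign and took 156 below the threshold. Another 26 did not pass but were among the 4 smallest p of their contrast, and 370 refits reversed none and took 14 past it. The remaining results that did not pass are not in these tallies. Signs did reverse among them, as for Ebp and Hmgcs1 in LT-HSC without WT replicate 30. In CD41-negative HSC the 11 calls became 3 with only the groups compared, 4 to 19 with 1 library left out and 2 without the male libraries. The CD41-positive genotype count was 1 with DESeq2. The MkP genotype count was 1 with DESeq2, 1 with limma-voom and 0 to 1 with 1 library left out. The 16 WT calls between CD41 fractions became 3 with only the groups compared, 3 to 20 with 1 library left out and 5 without CD41-negative replicates 1 and 3, and the 11 V617F calls 7 to 11 with 1 library left out. Between MkP and LT-HSC, the 2 WT calls became 1 with RLE size factors, 1 with no filter, 0 with only the groups compared and 1 to 2 with 1 library left out, and the V617F count of 0 became 1 with DESeq2 and 6 with only the groups compared. The interaction counts were 0 to 7 (CD41 fractions) and 0 to 1 (MkP and LT-HSC) with 1 library left out. Why they moved was not tested. With the replicate number as a block over all CD41-fraction groups the counts were 14 (CD41-negative genotype), 0 (CD41-positive genotype), 12 (WT fractions), 12 (V617F fractions) and 0 (interaction), and with the number within a genotype 14, 13 and 0 for the last 3 and 3 for WT MkP against LT-HSC. Only the V617F CD41-fraction numbers pair by the residual check, with 1 lone library in a group taken to vary like the others. Depth was 17579314 counts or more, and the spread between v2 libraries limits the LT-HSC and MkP comparisons.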
